A study of Mus musculus with 120 samples.

Results

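The BMP-responsive genes Id1, Id2, Id3, Smad6, Smad7, Msx1 and Msx2 and the ligand gene Bmp4 were followed through 20 overexpression experiments in mouse embryonic stem (mES) cells. All probe sets that the array annotation assigned to these 8 symbols alone were taken, 13 in all on the Mouse 430_2 array, which holds 45101 probe sets, and 11 on the smaller Mouse 430A_2 array, which holds 22690. Each experiment held 3 clones of the EB3 line, in which a tagged coding sequence at the ROSA26 locus is transcribed once tetracycline (Tc) is withdrawn, and each clone was profiled after withdrawal (induced) and in the presence of Tc (uninduced). The induced gene was Aire, Bach1, Dscr1, Erg, Ets2, Gabpa, Nrip1, Olig1, Pknox1, RIKEN-1810007M14, Hunk, Dyrk1a, Snf1lk, Pdxk, Ripk4, Pfkl, Olig2, Sim2, Zfp295 or Runx1, and for Dyrk1a, Snf1lk and Zfp295 the human coding sequence was introduced. By the labels the induced arrays were taken at 24 hours in 15 experiments, at 39 hours for Hunk, Ripk4 and Sim2, and at 48 hours for Aire and Pdxk, while a table of the study gives a later time than the label for Pfkl. All clones were kept with leukaemia inhibitory factor and serum, which carries BMP activity of its own. The study describes gelatin-coated dishes and names no feeder cells. The Zfp295 and Hunk clones were grown with more puromycin than was used to select the lines. Runx1 was profiled on the Mouse 430A_2 array (6 arrays) and the other 19 genes on the Mouse 430_2 array (114 arrays). A clone is a single drug-resistant isolate of one parental line, so the 3 clones of an experiment are not independent lines, and the p-values measure the spread between them.

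BMPs are secreted ligands of the TGF-beta superfamily that bind pairs of serine/threonine kinase receptors, whose type I member phosphorylates Smad1, Smad5 and Smad9. With Smad4 these enter the nucleus and activate target genes, among which the Id genes are the classical early ones. Id proteins have a helix-loop-helix domain but no basic region, and they sequester the E proteins that other bHLH factors need to bind DNA. Smad6 and Smad7 are inhibitory Smads induced by the pathway that they restrain, and Msx1 and Msx2 are homeobox targets of BMP in many embryonic tissues. In mES cells BMP acts together with leukaemia inhibitory factor to maintain self-renewal, in part through Id genes.

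Since the induced proteins include ETS factors (Erg, Ets2, Gabpa) and a RUNX factor (Runx1), the 250 bases before the annotated start were read. RefSeq (GRCm38.p6) promoter entries were found for 6 of the 8 members, all but Id1 and Smad7, and those of Id2, Id3, Bmp4 and Smad6 are shown because their responses differed between the Erg and Runx1 experiments. Below, 5′ to 3′ on the strand of the gene, capitals mark a match on either strand to the BMP-Smad motif GGCGCC, the Smad palindrome GTCTAGAC, the ETS motif CCGGAA or the RUNX motif TGTGGT, none of which overlapped another match.
Id2, chr12:25096093-25096342, minus strand: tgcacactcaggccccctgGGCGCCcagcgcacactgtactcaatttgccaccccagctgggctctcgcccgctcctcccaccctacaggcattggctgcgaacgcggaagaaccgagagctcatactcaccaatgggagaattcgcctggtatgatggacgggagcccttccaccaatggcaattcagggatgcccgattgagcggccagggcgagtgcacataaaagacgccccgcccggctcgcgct
Id3, chr4:136143572-136143821, plus strand: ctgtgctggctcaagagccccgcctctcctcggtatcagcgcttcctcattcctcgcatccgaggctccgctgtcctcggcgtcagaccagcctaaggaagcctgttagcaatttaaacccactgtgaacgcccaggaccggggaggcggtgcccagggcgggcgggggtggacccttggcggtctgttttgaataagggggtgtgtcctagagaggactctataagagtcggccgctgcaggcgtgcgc
Bmp4, chr14:46390670-46390919, minus strand: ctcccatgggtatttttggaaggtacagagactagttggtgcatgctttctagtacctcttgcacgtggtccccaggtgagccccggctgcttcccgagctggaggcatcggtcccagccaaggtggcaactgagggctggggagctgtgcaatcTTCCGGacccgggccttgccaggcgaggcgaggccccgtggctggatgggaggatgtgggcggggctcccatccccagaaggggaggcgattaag
Smad6, chr9:64022060-64022309, minus strand: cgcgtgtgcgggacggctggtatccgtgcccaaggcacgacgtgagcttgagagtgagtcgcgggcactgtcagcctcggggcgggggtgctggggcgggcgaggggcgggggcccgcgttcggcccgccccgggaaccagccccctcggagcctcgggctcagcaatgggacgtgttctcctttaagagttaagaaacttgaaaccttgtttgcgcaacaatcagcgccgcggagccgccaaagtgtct

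The Id2 window held 1 match to GGCGCC, 231 bases before the start, and the Bmp4 window held 1 match to CCGGAA on the opposite strand, 95 bases before the start. The Id3 and Smad6 windows held none of the 4 motifs, nor did those of Msx1 and Msx2, whose letters are not shown. Of 32851 RefSeq promoter windows of the same length, 9.59% held GGCGCC, 0.167% GTCTAGAC, 12.0% CCGGAA and 14% TGTGGT. A match describes letters in this window and says nothing of binding.

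The arrays carried the markers of ES cells. The 10 ES cell markers, Pou5f1, Nanog and Sox2 among them, lay at or above the 95.7th percentile of probe set levels in uninduced cells, while the 5 fibroblast markers ran from the 4.56th (lowest) to the 97.1st (highest). Levels are log2 intensities that the authors computed by robust multi-array averaging (RMA) within the 6 arrays of an experiment, and array medians within an experiment differed by at most 0.09. The study itself measured the induction of each gene by quantitative PCR. It also reports a band of the tagged protein on western blots for all genes tested, Erg, Nrip1, Runx1 and Pknox1 among them. Probe sets of the induced gene itself gave little check of the labels. The transgene is a coding sequence alone, and where the probes lie relative to it was not examined. A rise of over 1 on the log2 scale in all 3 clones was seen for 1 of the 20 genes (Dscr1, 2.14), the largest rise of a Runx1 probe set was 1.39, and the largest mean difference of an Erg probe set was 0.04. The other way, all 3 Pknox1 probe sets were lower in every clone when Pknox1 was induced (-1.47, -1.21 and -1.45), as were 2 Nrip1 probe sets when Nrip1 was (-0.59 and -0.38). Precision rests on 3 arrays per state.

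Id2 was the member that moved most often. Like the other Id proteins, it holds back E proteins. In the Erg experiment its brightest probe set (1435176_a_at) was measured at 9.90, 9.97 and 10.39 in the induced arrays, against 7.29, 7.42 and 8.01 in the uninduced arrays. Every induced array lay above every uninduced one, and the difference was 2.51 ± 0.08 (log2, SE, n = 3 clones), a 5.71-fold rise (limma with the clone as a block, Benjamini-Hochberg adjusted p = 1.3e-05). The second probe set (1422537_a_at) rose by 2.01 and the third (1453596_at), which is dim, by 0.45, a call lost without clone 1 or clone 3. In these cultures a change in the share of cells with a transcript and a change in its amount per cell cannot be told apart.

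Id1 and Id3, the close relatives of Id2 that respond to BMP in most cell types, rose with it in the Erg experiment. Id1 (1425895_a_at) was at 12.34, 12.28 and 12.37 in induced cells and at 10.20, 10.16 and 10.24 in uninduced cells. The 3 clones were almost alike, with differences between 2.12 and 2.14, and the rise was 2.13 ± 0.08 (4.38-fold, limma adjusted p = 1.5e-05). Id3 (1416630_at) was at 10.33, 10.48 and 10.70 in induced cells, against 8.18, 8.80 and 8.30 in uninduced cells, a rise of 2.08 ± 0.13 (4.22-fold, limma adjusted p = 1.4e-04).

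The other members did not all follow the Id genes in the Erg experiment. Msx2 (1449559_at), at 6.66, 6.76 and 6.93 in induced cells and 6.16, 5.95 and 6.19 in uninduced cells, rose by 0.68 ± 0.09 (limma adjusted p = 0.0028). Smad7, an inhibitor of both BMP and TGF-beta receptors, fell on both probe sets. On 1443771_x_at its induced arrays read 7.66, 7.74 and 7.82, against 8.75, 8.21 and 8.60 in uninduced arrays, with no overlap (-0.78 ± 0.12, limma adjusted p = 0.0053). On 1423389_at the difference was -0.53 ± 0.12 with overlapping groups, and that call was lost without clone 1 or clone 2 and without the clone as a block (limma adjusted p = 0.126). Neither Smad6 (-0.04 ± 0.09) nor Bmp4 (0.02 ± 0.11) passed the threshold. Bmp4 lay at 10.41, 10.57 and 10.23 in induced arrays and at 10.21, 10.88 and 10.07 in uninduced arrays. In all, 6 of the 13 member probe sets rose and 2 fell, where 5.71% of all probe sets rose and 6.28% fell.

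**Figure D1:**
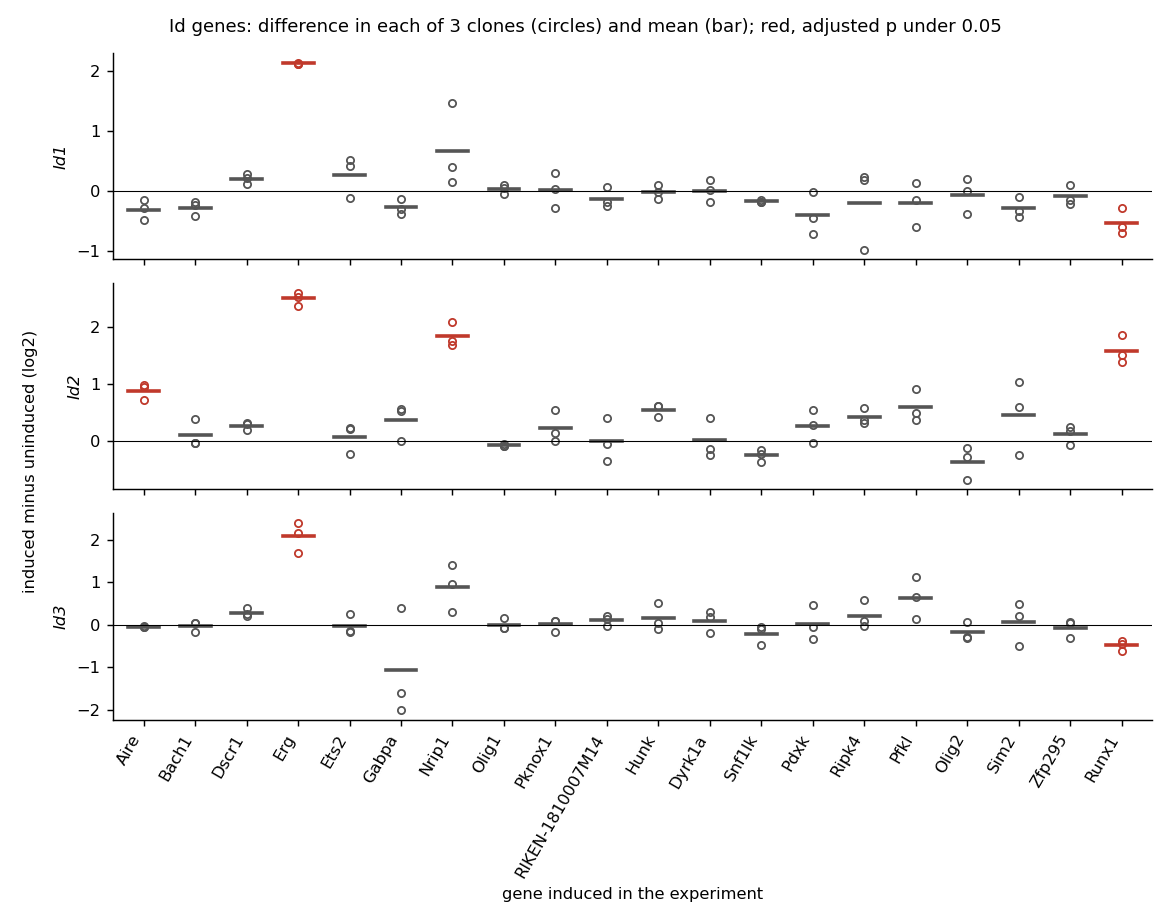
Induced minus uninduced log2 intensity of Id1, Id2 and Id3 (brightest probe set of each) in the 20 experiments; circles are the 3 clones, bars their mean, red marks an adjusted p under 0.05 (limma). Id1 and Id3 stand above 2 in the Erg experiment and below 0 in the Runx1 experiment, while Id2 is above 1.5 in both and in the Nrip1 experiment.

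In the Runx1 experiment the Id genes parted. Id2 rose on all 3 of its probe sets, and the brightest read 10.87, 10.49 and 10.71 in induced cells, against 9.35, 8.62 and 9.33 in uninduced cells. The groups did not overlap, and the rise was 1.59 ± 0.10 (3.01-fold, limma adjusted p = 8.0e-04). The call of the third probe set (1453596_at, 0.82) was lost without clone 3 (limma adjusted p = 0.120). Id1 fell, with 10.63, 10.41 and 10.49 in induced cells and 10.91, 11.01 and 11.19 in uninduced cells (-0.53 ± 0.10, limma adjusted p = 0.0198), a call that was lost without clone 2 or clone 3. Id3 fell as well, with 8.91, 8.87 and 8.60 in induced cells and 9.30, 9.33 and 9.22 in uninduced cells (-0.49 ± 0.07, limma adjusted p = 0.0099).

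The ligand gene Bmp4 and the inhibitor gene Smad6 had their largest differences of all 20 experiments under Runx1. Bmp4 (1422912_at) was at 9.24, 9.52 and 9.44 in induced cells, against 10.79, 11.00 and 11.05 in uninduced cells, so it was 2.92-fold lower (-1.54 ± 0.06, limma adjusted p = 2.7e-04). Smad6 (1422771_at), an inhibitory Smad that acts mainly on BMP type I receptors, was at 5.59, 5.05 and 5.29 in induced cells, against 6.67, 6.63 and 6.63 in uninduced cells, 2.52-fold lower (-1.33 ± 0.10, limma adjusted p = 0.0013). Induced and uninduced arrays did not overlap in either gene, and both calls held in all 9 alternatives. The alternative with a shared variance was not applied to Runx1, so there it repeated the main fit.

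Msx2 rose under Runx1 too, with 7.15, 7.27 and 7.35 in induced cells and 6.57, 6.47 and 6.91 in uninduced cells (0.61 ± 0.09, limma adjusted p = 0.0087). Smad7 did not pass the threshold (-0.55 ± 0.16, limma adjusted p = 0.0713) although its groups did not overlap, nor did the Msx1 probe sets (-0.24 and -0.06). Of the 11 member probe sets 4 rose and 4 fell, where 8.51% of all probe sets of this array rose and 7.65% fell.

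**Figure D2:**
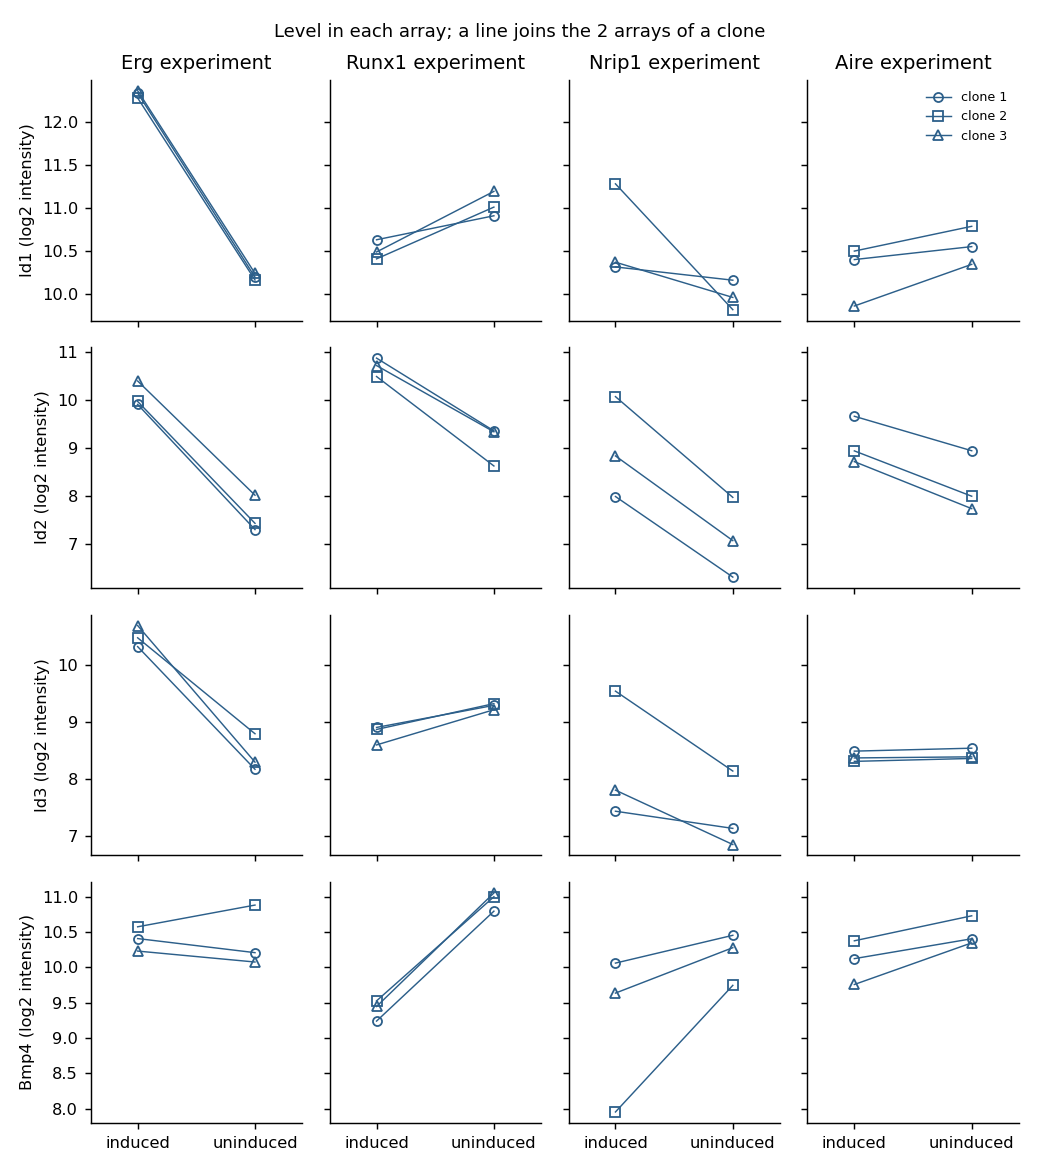
Log2 intensity of Id1, Id2, Id3 and Bmp4 (rows) in each array of the Erg, Runx1, Nrip1 and Aire experiments (columns), induced on the left and uninduced on the right of each panel; a line joins the 2 arrays of a clone. Id2 is higher in the induced array of every clone shown, Bmp4 is lower in every clone of the Runx1, Nrip1 and Aire experiments, and clone 2 of the Nrip1 experiment has the steepest lines for Id1, Id3 and Bmp4.

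The responses to Erg and Runx1 were also set against each other, in a fit on the within-clone differences over the 22689 probe sets both arrays hold, a contrast chosen after the values were seen. The Erg response minus the Runx1 response was 2.66 ± 0.23 for Id1, 2.56 ± 0.32 for Id3, 1.56 ± 0.20 for Bmp4 and 1.29 ± 0.17 for Smad6 (limma adjusted p between 1.4e-12 and 1.2e-07). For Id2 it was 0.92 ± 0.22 on the brightest probe set (limma adjusted p = 0.0012). For Msx2 it was 0.08 ± 0.16 and for Smad7 0.02 ± 0.24, neither of which passed. In this contrast 16.6% of all probe sets passed the threshold.

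In the Nrip1 experiment, whose gene encodes a corepressor of nuclear receptors, only Id2 passed the threshold, on 1 probe set. Its brightest probe set was at 7.98, 10.07 and 8.83 in induced cells, against 6.30, 7.96 and 7.06 in uninduced cells. Clone 2 was highest in both states, and each clone rose, by 1.68, 2.10 and 1.77, which gave 1.85 ± 0.11 (3.61-fold, limma adjusted p = 0.0250). The call was lost without clone 1 or clone 3 and without the clone as a block (limma adjusted p = 0.634). Here 1 of 13 member probe sets rose and 0 fell (7 and 3 at an unadjusted p under 0.05, 0 by the methods' t-test), where 0.113% of all probe sets rose and 0.0222% fell. At an unadjusted p under 0.05 the share of all probe sets was 9.84%, in either direction.

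Other members of the Nrip1 experiment moved in every clone without passing the threshold, and clone 2 moved most in most of them. Bmp4 was at 10.06, 7.95 and 9.63 in induced cells and at 10.45, 9.74 and 10.28 in uninduced cells, a difference of -0.94 ± 0.25 (limma adjusted p = 0.245) that was -1.79 in clone 2 and -0.39 and -0.64 in the others. Id3 differed by 0.89 ± 0.20, Id1 by 0.68 ± 0.24 (1.46 in clone 2, 0.15 and 0.41 in the others) and Smad6 by -0.39 ± 0.09. The mean level of the 10 ES cell markers was 11.37 to 11.81 in the induced arrays and 11.87 to 12.08 in the uninduced arrays of this experiment, and the part of this shift in the members' values was not tested.

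In the Aire experiment, at 48 hours, Id2 rose on both bright probe sets and Bmp4 fell. Aire is the transcriptional regulator known for the display of tissue antigens in the thymus. Id2 (1435176_a_at) read 9.66, 8.93 and 8.71 in induced cells, against 8.94, 7.99 and 7.73 in uninduced cells. The groups overlapped, since the clones differed more among themselves than by state, while each clone rose by 0.72 to 0.98 (0.88 ± 0.08, limma adjusted p = 0.0034). Bmp4 was at 10.12, 10.37 and 9.76 in induced cells and 10.40, 10.73 and 10.34 in uninduced cells (-0.41 ± 0.08, limma adjusted p = 0.0362). Without the clone as a block none of these 3 calls remained (limma adjusted p between 0.357 and 0.397), and without clone 3 the calls of Bmp4 and of Id2 1422537_a_at were lost. The Bmp4 call was also lost with a variance shared over experiments (limma adjusted p = 0.129), and the methods' t-test called 0 members here. Of the 13 member probe sets 2 rose and 1 fell, where 2.45% of all probe sets rose and 1.48% fell.

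In the other 16 experiments no member probe set passed the threshold in limma, in 208 tests. At an unadjusted p under 0.05 there were 16 higher and 14 lower, and the methods' t-test called 0. Of all probe sets, 2.24% to 16.0% were under that unadjusted limit in these experiments, in either direction (median 5.32%). Other limma settings did call members here. With a variance shared over experiments 5 rose and 2 fell, in Gabpa, Pfkl, Olig2 and Sim2, and with a trended variance 3 rose, in Hunk and Olig2. With arrays centred on their medians 2 rose in Olig2, without clone 3 of each experiment 2 rose in Sim2, and without clone 2 a probe set fell in Gabpa and another in Pdxk. Of all probe sets 1.76% passed in the Olig2 experiment, 0.914% in Sim2, 0.264% in Pdxk, 0.0177% in Ripk4, 0.00665% in Hunk and 0.00222% in Bach1, and 0 in the remaining 10. The lowest member p was that of Bmp4 in the Olig2 experiment, with 10.97, 11.16 and 10.83 in induced cells and 10.74, 10.69 and 10.27 in uninduced cells (0.42 ± 0.08, limma adjusted p = 0.0614). Olig2 is a bHLH factor of the oligodendrocyte and motor neuron lineage.

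A larger value with a wide spread was that of Id3 in the Gabpa experiment. Its induced arrays read 7.19, 7.56 and 7.67, against 9.20, 7.16 and 9.28 in the uninduced arrays. The uninduced array of clone 2 lay among the induced arrays, and the groups overlapped. The clones differed by -2.0, 0.40 and -1.60 (mean -1.07 ± 0.43, limma adjusted p = 0.425). Deviations of its same-numbered arrays from the state means correlated at 0.05, -0.18 and 0.17, the second being the lowest r of all pairs. The data thus give little backing to the pairing that these differences rest on.

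**Figure D3:**
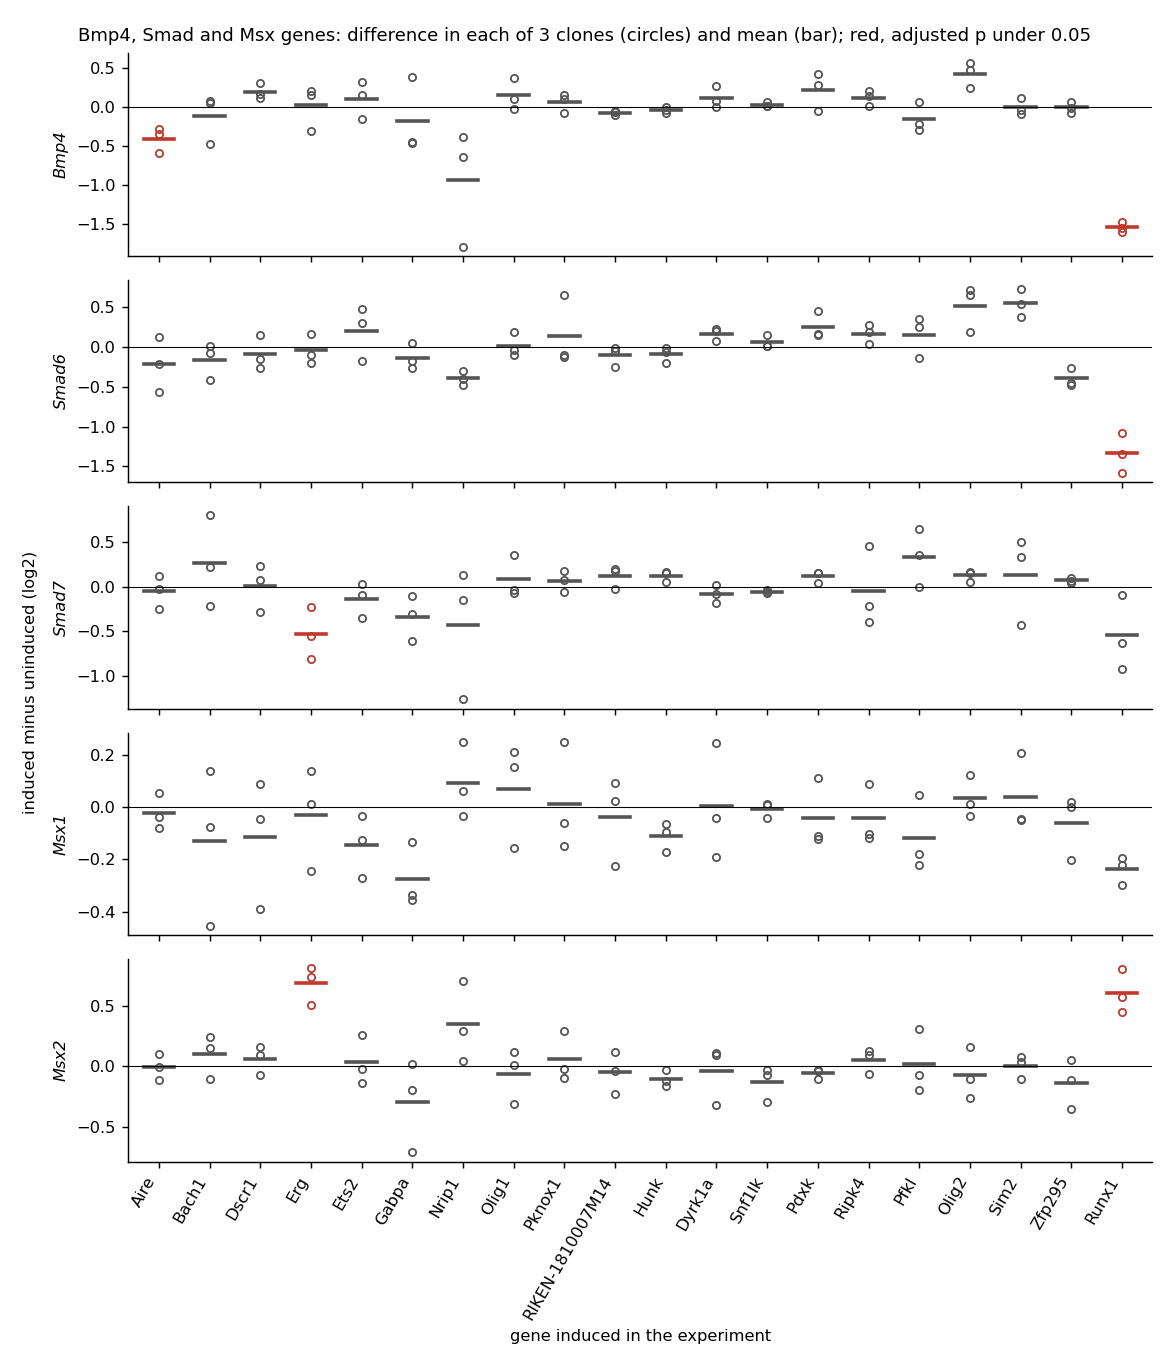
Induced minus uninduced log2 intensity of Bmp4, Smad6, Smad7, Msx1 and Msx2 (brightest probe set of each) in the 20 experiments; circles are the 3 clones, bars their mean, red marks an adjusted p under 0.05 (limma). Bmp4 (-1.54) and Smad6 (-1.33) are lowest in the Runx1 experiment, and the Msx1 means stay within 0.3 of 0 in all.

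Whether the response of an experiment differed from that of the others was tested on the within-clone differences. Against the other experiments, the Erg response of Id1 was larger by 2.19 ± 0.17, that of Id2 by 2.21 ± 0.16 and that of Id3 by 2.03 ± 0.23 (limma adjusted p at most 3.0e-09), and 8 of 13 member probe sets passed, where 12.3% of all did. Among the ETS factors, Ets2 gave no call, with Id1 at 0.27, Id2 at 0.07 and Id3 at -0.02 in the simple comparison. In the Runx1 experiment 8 of 11 passed, with Bmp4 at -1.52 ± 0.14 and Smad6 at -1.37 ± 0.13, where 14.1% of all did. The Id1 call there (-0.58) was lost without clone 3 and when Erg was left out of the other experiments (-0.46, limma adjusted p = 0.0584). That of Smad7 (-0.54) was lost without clone 1 or clone 2, becoming -0.34 without clone 2. In the Erg experiment the call of Smad7 1423389_at was lost without clone 1 or clone 2, and that of the dim Id2 probe set without clone 1 or clone 3.

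This fit pools the spread over experiments and made calls where the fit of single experiments did not. In the Nrip1 experiment 9 of 13 passed (3.92% of all probe sets), among them Id2 at 1.51 ± 0.16, Bmp4 at -0.96 ± 0.15 and the Msx1 probe set 1448601_s_at at 0.69 ± 0.11. The brighter Msx1 probe set (1417127_at) was at 0.15 ± 0.10 and did not pass. Without clone 2 of each experiment the Bmp4 value became -0.53 and was no longer called, and the calls of Id1, Id3, Smad6, Smad7 and the dim Id2 probe set there were lost too. Without clone 3 those of Id1, Id3 and Smad6 were lost, and without clone 1 those of Smad7 and the dim Id2 probe set. In the Gabpa experiment 1 of 13 passed (9.09% of all), Id3 at -1.29 ± 0.23, and this call was lost without clone 1 or clone 3.

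In the Olig2 experiment 3 of 13 passed (1.68% of all), with Id2 lower by 0.83 ± 0.16 and Smad6 higher by 0.51 ± 0.13 than in the other experiments. The Smad6 arrays of the Olig2 experiment were at 6.69, 6.80 and 6.66 when induced and at 6.50, 6.16 and 5.94 when uninduced. In the Sim2 experiment 1 passed (9.3% of all), Smad6 at 0.54 ± 0.13, its arrays being at 6.0, 6.25 and 5.82 when induced and at 5.45, 5.52 and 5.45 when uninduced. In the Pfkl experiment 1 passed (0.472% of all), Smad7 1443771_x_at at 0.56 ± 0.12. Leaving out clone 2 of each experiment ended all these calls but those of Id2, leaving out clone 3 ended those of Smad6 and Id2 1422537_a_at in Olig2, and leaving out clone 1 ended that in Pfkl. In the remaining 13 experiments 0 of 169 member tests passed in limma (19 at an unadjusted p under 0.05), where the share of all probe sets that did was 2.9% in Pdxk, 0.745% in Aire, 0.071% in Bach1, 0.051% in Ripk4, 0.0488% in Dyrk1a, 0.0155% in Pknox1, 0.0111% in Ets2, 0.00665% in Hunk, 0.00222% in Dscr1 and 0 in the other 4. These shares are after adjustment, and the share of all at the unadjusted threshold is not given here.

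Over the 19 experiments of the Mouse 430_2 array no member passed the threshold in the test of a shared response. The mean difference of Id2 was 0.42 ± 0.14, higher in 15 of the 19, and did not pass after adjustment (limma adjusted p = 0.203). Those of Id1 (0.05), Id3 (0.16), Bmp4 (-0.03), Smad6 (0.03), Smad7 (-0.01), Msx1 (-0.05) and Msx2 (0.02) did not pass either. In limma 0 of 13 member probe sets passed (3 at an unadjusted p under 0.05), where 0.0554% of all did. That share is after adjustment, and the one at the unadjusted threshold is not given here. With each clone in place of each experiment as the unit, 2 passed.

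In the order of the Id2 responses Erg (2.51) came first, with no overlap of its clones with those of Nrip1 (1.85), which overlapped those of Runx1 (1.59). Aire (0.88) followed with no overlap with Runx1, then Pfkl (0.59) and Hunk (0.55), and from Aire down to Olig1 (-0.08) each experiment overlapped its neighbour. For Id1 and Id3 only Erg stood apart from its neighbour at the top, which was Nrip1 for both. At the low end for Bmp4, the Runx1 clones (-1.61 to -1.47) overlapped those of Nrip1 (-1.79 to -0.39), through clone 2 of Nrip1.

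The members did not move as a block. Over the 20 experiments the differences of Id1 and Id3 had a Pearson r of 0.85 and a Spearman rho of 0.47, and r was 0.51 without Erg and Runx1. The differences of Id2 and Bmp4 were negatively correlated, with r at -0.62 and rho at -0.58. Their r was -0.87 without Erg and Runx1 and -0.86 without Erg and Nrip1. Their signs were not opposite throughout. Under Erg, Id2 was at 2.51 and Bmp4 at 0.02, and both were also above 0 under Ripk4, Dscr1 and Pdxk. Smad6 and Bmp4 had r at 0.85, and 0.57 without Runx1 and Nrip1. These are descriptions over experiments that share a parental line and a method, from 28 pairs of members computed, and no test was made.

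**Figure D4:**
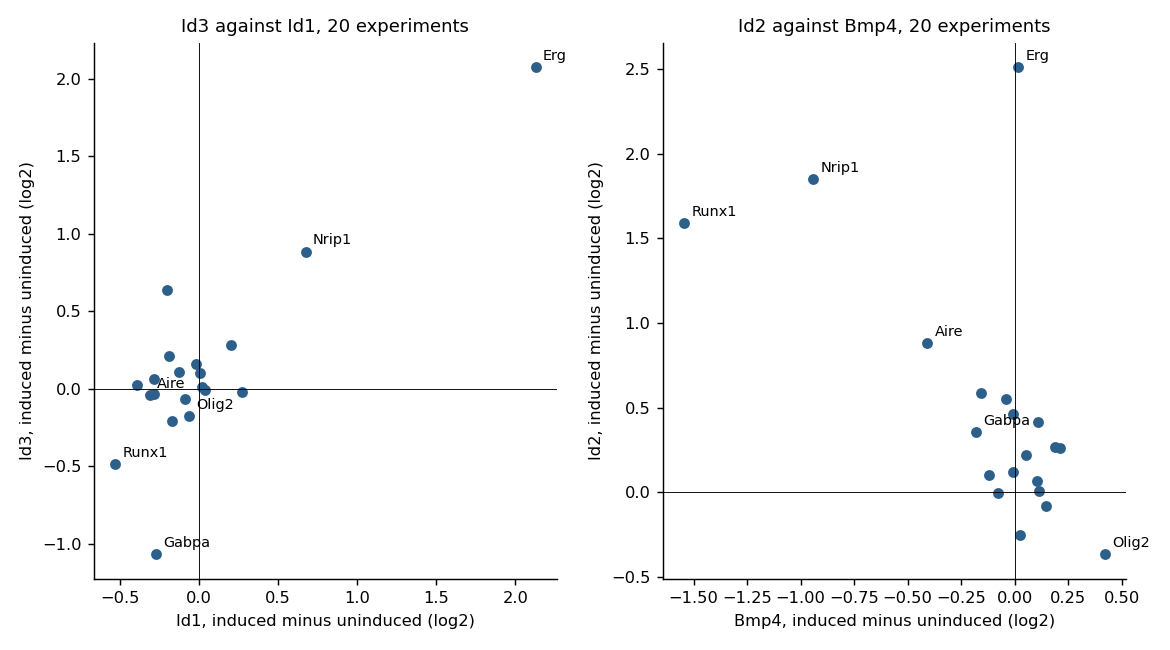
Mean induced minus uninduced log2 differences of 2 pairs of members, each point an experiment: Id3 against Id1 (left) and Id2 against Bmp4 (right). The Id1 and Id3 pair is drawn out by Erg, above 2 on both axes, whereas Runx1, Nrip1 and Aire have Id2 above and Bmp4 below 0.

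The genes whose differences over the 19 experiments were most like those of Id2 were Trp53bp1, Trib2, Aff3, Rcbtb2 and Prr5l (Pearson r between 0.92 and 0.95, and between 0.82 and 0.91 without Erg). For Id1 they were Vwa1, Dok2, Sh2b3, Ramp2 and Serpinb9b, with r between 0.93 and 0.95 that became 0.63 to 0.74 without Erg. For Bmp4 they were Pcolce, Ak4, Cdyl2, Mymx and Slc25a4 (r between 0.80 and 0.87), and leaving out Erg changed these to 0.84 to 0.89. The likeness was measured among 20081 probe sets of higher level, and the points share one cell line.

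Of the other genes of the pathway, 59 were listed and 55 were measured on the Mouse 430_2 array and 46 on the Mouse 430A_2 array. They passed the threshold 40 times, in the Erg, Runx1, Aire, Olig2 and Sim2 experiments. In the other 15 experiments 0 of 825 tests passed in limma (69 at an unadjusted p under 0.05). At that unadjusted threshold the share of all probe sets in these experiments ran from 2.24% (Dscr1) to 16.0% (Pdxk). Of the 27 higher and 13 lower calls, 10 and 6 remained without clone 3 of each experiment, 17 and 7 without clone 1, 17 and 9 without clone 2, and 16 and 8 without the clone as a block. The median difference of the listed genes lay within 0.1 of 0 in every experiment, as did that of all probe sets.

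Receptors made up the largest group of calls under Erg. Of 10 receptor and co-receptor genes 4 rose and 1 fell, with Acvr1 (a BMP type I receptor) at 6.81 in induced and 5.98 in uninduced cells (0.83 ± 0.09), Acvrl1 (a type I receptor of endothelium) at 0.79 ± 0.10, Eng (its co-receptor endoglin) at 0.58 ± 0.08 and Rgmb (a BMP co-receptor) at 0.49 ± 0.10. Acvr2a, a type II receptor, fell by 0.33. Of 5 signal transducers 2 rose, Smad5 by 0.52 and Zfp423, a zinc finger partner of BMP Smads, by 0.57, while Smad1 differed by 0.02 and did not pass. Of 15 antagonists and inhibitors 3 rose (Skil 0.69, Ski 0.57, Bambi 0.47), and of 10 ligand genes 1 fell (Gdf3 -0.39).

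Under Erg, 2 of 10 further target genes rose. Gata2, a haematopoietic and endothelial GATA factor, had the largest difference on the lists, at 8.06 in induced and 6.57 in uninduced cells (1.49 ± 0.09, limma adjusted p = 9.4e-05), and Id4, the fourth Id gene, rose by 0.73 ± 0.12. Tcf3, the E protein that Id proteins bind, differed by 0.22 and did not pass. Over all lists 11 of 55 rose and 2 fell, which is 20% and 3.64%, beside the 5.71% and 6.28% of all probe sets. The lists count the brightest probe set of each gene, while the share of all includes dim probe sets and those with no gene symbol. The sets are therefore unlike.

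Under Runx1, 8 of 46 rose and 7 fell, 17.4% and 15.2%, beside 8.51% and 7.65% of all probe sets. Here too the lists count the brightest probe set of each gene, and the share of all does not. Id4 fell by 0.95 ± 0.06, at 4.40 in induced and 5.35 in uninduced cells, and Tbx3, a T-box gene of the ES cell network, fell by 0.84 ± 0.07. Among antagonists and inhibitors Tob1 (0.80) and Twsg1 (0.77) rose, while Bambi, a decoy receptor that BMP itself induces, fell by 0.71 and Grem1 fell by 0.53. Gdf3, a ligand gene of ES cells, fell by 0.75 and Bmp6 (0.30) and Bmp7 (0.25) rose. Of the partners of Id proteins, Tcf3 (0.59 ± 0.10) and Tcf12 (0.34 ± 0.06) rose and Tal1 fell by 0.37, Tcf3 and Tcf12 being E proteins.

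**Figure D5:**
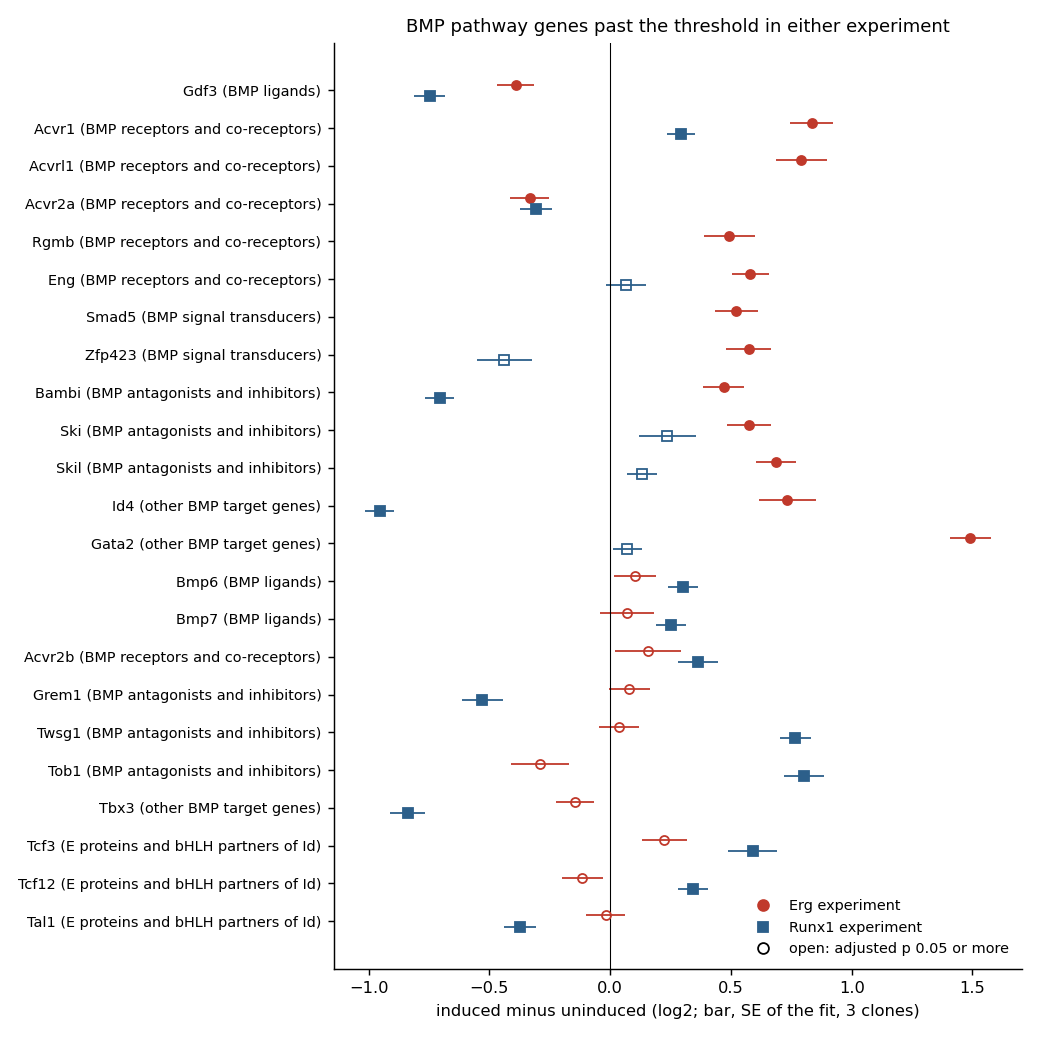
Induced minus uninduced log2 differences (± SE of the limma fit, 3 clones) of the listed BMP pathway genes that passed the threshold in the Erg (circles) or Runx1 (squares) experiment; open symbols did not pass, and a gene with 1 symbol is not on the smaller array. Of 23 genes 5 passed in both, and of these Bambi and Id4 are higher in Erg and lower in Runx1.

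The 5 genes that passed in both experiments were Acvr1, higher in both, Gdf3 and Acvr2a, lower in both, and Bambi and Id4, which were higher under Erg and lower under Runx1, as Id1 and Id3 were. Id4 passed in all 5 experiments with calls on the lists: it was higher under Sim2 (1.19 ± 0.17) and Aire (0.62 ± 0.08) and lower under Olig2 (-0.58 ± 0.10). Without the clone as a block the Id4 calls under Sim2, Aire and Olig2 were lost (limma adjusted p = 0.421, 0.0985 and 0.160). A table of the study lists the Sim2 clones in another order before and after induction, and with clones 1 and 2 crossed 0 of all probe sets passed under Sim2 in limma (4597 at an unadjusted p under 0.05), against 412 as numbered, so that Id4 (limma adjusted p = 0.0848) and Fstl1 (0.118) were no longer called there. Gata2 (0.45) and Bmpr2 (0.47) rose under Olig2, and Fstl1, a secreted follistatin-like protein, rose under Sim2 (0.73) and Aire (0.52). Aire also gave calls for Gdf3 (-0.46), Cdx2 (-0.40), Zfp423 (-0.39), Acvr2b (0.48) and Skil (0.36).

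ES cell markers moved in the same experiments. Under Erg 6 of 10 fell, Nanog by 1.13, and the mean level of the 10 was 11.64 to 11.82 in induced and 12.04 to 12.20 in uninduced arrays. Under Runx1 5 fell and 1 rose, and the mean level was 12.17 to 12.25 in induced and 12.43 to 12.46 in uninduced arrays. Markers of other lineages moved under Runx1 as well. Of 5 trophectoderm markers Krt7 (1.65) and Tfap2c (0.79) rose, and the mean level of the 5 was 6.65 to 6.72 in induced and 6.15 to 6.30 in uninduced arrays. Of 4 mesoderm and primitive streak markers Eomes (1.74) rose, with mean levels of 6.06 to 6.19 in induced and 5.63 to 5.71 in uninduced arrays. Of 5 neural markers Nes (0.47) and Tubb3 (0.45) rose and Pax6 (-0.71) fell, with overlapping mean levels. No endoderm marker passed, and Vim (0.50) rose. Of the 5 fibroblast genes Thy1 (2.11) and Vim (0.68) rose under Erg, while Col1a1, Col1a2 and Col3a1 differed by less than 0.2. The mean level of these 5 was 6.96 to 7.05 in induced and 6.28 to 6.64 in uninduced arrays of the Erg experiment. The part of these shifts in the members' values was not tested.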

How the data were processed

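Labels gave the induced gene, the state and the replicate number of each of the 120 arrays, but did not name the clone. The authors made the deposited log2 intensities with RMA of the affy package, apart for the 6 arrays of each experiment, so levels were compared within experiments only. Same-numbered arrays were taken as one clone, which for Sim2 is uncertain since a table of the study lists its clones in another order before and after induction, so the crossed pairing was run too. Deviations of same-numbered arrays from the state means correlated above 0.1 in 54 of 60 pairs (median r 0.38). Each experiment was fitted with limma 3.58.1 (R 4.3.3) with terms for state and clone, p-values were adjusted over all probe sets (Benjamini-Hochberg) and a probe set was called at an adjusted p under 0.05. Differences between experiments were tested on the within-clone differences (57, or 60 with Runx1), and the mean response on 1 mean per experiment. The fits were tested on simulated data. Members were named by every probe set, the brightest in uninduced cells standing for its gene. Of the listed pathway genes those past the threshold were named, by size, at most 30. Per-array values are given for called member probe sets, others having been chosen after their values were seen. The members and lists were chosen with earlier results of these data known. Alternatives dropped the clone term or left out each clone in turn. Others left out the dimmest 25% of probe sets, used a trend, or centred arrays on their medians. Another shared the variance over the Mouse 430_2 experiments and left the Runx1 fit as it was. The Sim2 clones were also crossed (for differences between experiments this was added after seeing the data). The methods' t-test was an ordinary pooled-variance t-test with no clone term. The study's results name a Bayesian t-test (Cyber-t), which was not run. Scripts for sequences and plots used Python 3.11.15, pandas 2.3.3 and matplotlib 3.10.9.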

Additional observations from a re-analysis of the deposited data

Results flagged for a closer look

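Responses that differed from those in the other experiments by a limma test of the difference itself (adjusted p under 0.05) are given here with their size on the log2 scale, induced minus uninduced, less the mean of the other experiments. In the Erg experiment they were Id1 2.19, Id2 2.21, 1.82 and 0.43 on its 3 probe sets, Id3 2.03, Msx2 0.70 and Smad7 -0.55 and -0.78. In the Runx1 experiment they were Id2 1.17, 1.03 and 0.78, Msx2 0.59, Bmp4 -1.52, Smad6 -1.37, Id1 -0.58 and Smad7 -0.54. In the Nrip1 experiment they were Id2 1.51, 1.28 and 0.35, Id3 0.77, Msx1 0.69, Id1 0.66, Bmp4 -0.96, Smad6 -0.45 and Smad7 -0.43. Other probe sets of these genes did not pass. They were Msx1 1417127_at (0.15), the brighter one, and Smad7 1423389_at (-0.44) under Nrip1, and the dim Msx2 1438351_at (-0.04) under Erg.

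Fewer members stood apart in 4 further experiments. They were Id3 under Gabpa (-1.29), Id2 (-0.90 and -0.83) and Smad6 (0.51) under Olig2, Smad6 under Sim2 (0.54) and Smad7 under Pfkl (0.56). With no clone term, 14 of these 31 still passed. The other Smad7 probe set under Pfkl (0.37) and the dim Id2 probe set under Olig2 (-0.03) did not pass with it.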

How the results depend on the processing

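Against 13 higher and 7 lower member calls, the totals were 10 and 5 without the replicate block and 11 to 13 and 6 to 7 without each clone in turn. They were 1 and 2 by the methods' t-test, run as an ordinary t-test and not as the study's Cyber-t. Some of these were new. Of the original calls 11 and 6 remained without clone 1, 13 and 5 without clone 2, and 9 and 5 without clone 3. With a variance shared over experiments 23 higher calls passed, 10 of them new. The 40 pathway calls became 25 without the replicate block, 18 to 42 without each clone and 8 by the methods' t-test. The 31 differences from other experiments became 14 without the replicate block and 23 to 25 without each clone, new calls included. Of the original 31, 24 remained without clone 1, 20 without clone 2 and 23 without clone 3. With each clone difference as a unit 2 members passed for the mean response, against 0. No called member value changed its sign under the alternatives run, and values that were not called were not followed. In 15 of 20 experiments all 3 same-numbered pairs correlated above 0.1, Sim2 among them. The exceptions were Bach1, Gabpa, RIKEN-1810007M14, Hunk and Pfkl. Crossing Sim2 clones 1 and 2 left 0 of 412 Sim2 calls over all probe sets in limma and 38 pathway calls. Sim2 had no member call to lose. The same crossing, added after seeing the data, left 28 of the 31 differences from other experiments, Smad6 in Sim2 among them, and ended those of Smad7 1423389_at in Erg and Runx1 and of the dim Id2 probe set in Nrip1. The cause of these changes was not tested. Dim probe sets of Id2 and Msx2 limit what can be read from them.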
